A study of Mus musculus with 16 samples.

Results

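Genes of the cell cycle and of proliferation were followed in iWAT, inguinal white adipose tissue, which lies under the skin of the groin, as a list of 40 genes chosen by name for their place in DNA replication and cell division. All 40 were found among the 54752 Ensembl gene IDs of the count table, and all 40 passed the filter on low counts that left 19736 genes for testing. The list was set against the lymph node transcripts of the same libraries, because the fat pad holds a lymph node that can be dissected with it, and a lymph node is a site of cell division. RNA of iWAT was sequenced in 16 libraries, 4 of each genotype, from mice labelled female, 90 days of age and C57BL/6. Wild-type (WT) mice had neither allele. In Lepob/+ mice 1 of the copies of Lep, which encodes leptin, was the ob allele, SOD1G93A mice had a high-copy transgene of mutant human SOD1, and SOD1G93A-Lepob/+ mice combined the ob allele and the transgene. The mice came from Lepob/+ mothers and SOD1G93A fathers, and every cell of an animal carries its alleles, so that none of the groups models a change in fat alone.

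A cell that enters division passes through a sequence of steps, each with its own set of transcripts. In G1 phase, cyclin E and its kinase lift the block that the Rb family places on E2F transcription factors, and genes for licensing and copying DNA are transcribed. Genes for chromosome segregation follow in G2 and mitosis, largely through MuvB complexes with B-Myb and FoxM1, and in resting cells the DREAM complex holds both sets down. Mature adipocytes do not divide, so that in fat these transcripts come chiefly from other cells, such as adipocyte progenitors, endothelium, macrophages and lymphocytes.

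Libraries are named here by genotype and replicate number, as in WT 1. Levels are in CPM, with library sizes adjusted by TMM, and differences are in log2 CPM. Total counts ran from 36.8 M to 61.9 M. The lymph node score, the mean log2 CPM of 8 genes that mark the stroma or the high endothelial venules of lymph nodes (among them Glycam1, Ccl19, Ccl21a and Cxcl13, with no cell cycle gene), fell into separate clusters. It was 3.88 to 4.80 in 6 libraries (WT 1 and 2, Lepob/+ 3, and SOD1G93A 1, 2 and 4), called the high class below, and -2.85 to -1.22 in the other 10, the low class, which held all 4 SOD1G93A-Lepob/+ libraries. The markers of T cells were 69.3-fold and those of B cells 96.3-fold higher in the high class (median over the list). A pair of libraries stood apart for other reasons. The library labelled SOD1G93A-Lepob/+ 3 had 0 counts of Xist and 1756 counts over the Y-linked genes Ddx3y, Uty, Kdm5d and Eif2s3y, which goes against its label of female, and it had the highest endothelium score of the 16 libraries. Lepob/+ 4 had a skeletal muscle score of 12.8, against at most 7.16 in the other 15 libraries. Genes of mature adipocytes were high in all 16 (score 9.67 to 10.9). Both are in the low class, and results that rest on them are given with and without them.

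The sequence in front of these genes was searched for short motifs, among them those of the factors named above. Of the 40 genes, 33 were matched by symbol to 35 promoters of RefSeq (GRCm38.p6), each 250 bases before to 50 bases after a start. These were searched on both strands for the E2F site (TTTCGCGC, TTTGGCGC, TTTCCCGC or TTTGCCGC), the cell cycle homology region, CHR (TTTGAA or TTCGAA), which MuvB complexes bind, and the CCAAT box (CCAAT), which NF-Y binds. The E2F site was found in 17.1% of the 35 promoters and in 2.26% of all 32851 promoters of the table. It was in 4 of the 6 promoters of Mcm genes and in 0 of the 19 promoters of the mitotic genes, Mki67 and Top2a. Cdk1, Ccnb1 and Ccnb2, which also act in mitosis, were grouped with the cyclins and not among those 19. Cdk1 held an E2F site 131 bases before its start, and Ccnb1 and Ccnb2 held 0. The CHR was found in 57.1% against 19.2% of all promoters, and in 78.9% of those 19. The CCAAT box was found in 82.9% against 37.4%. A match is a description of the letters and not a site shown to be bound, and the absence of these letters from the window says nothing of the factor. Shown are the 250 bases before the start of 4 genes, with the motifs in capitals. Mcm5 and Mcm6 act in replication, and Kif11 and Top2a act in mitosis.

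Mcm5, chr8:75109259-75109508, plus strand: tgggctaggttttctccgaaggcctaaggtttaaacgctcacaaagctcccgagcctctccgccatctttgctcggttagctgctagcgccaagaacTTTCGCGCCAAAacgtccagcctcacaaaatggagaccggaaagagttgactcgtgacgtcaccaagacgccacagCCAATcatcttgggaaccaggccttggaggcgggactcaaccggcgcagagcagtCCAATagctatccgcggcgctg
Mcm6, chr1:128359706-128359955, minus strand: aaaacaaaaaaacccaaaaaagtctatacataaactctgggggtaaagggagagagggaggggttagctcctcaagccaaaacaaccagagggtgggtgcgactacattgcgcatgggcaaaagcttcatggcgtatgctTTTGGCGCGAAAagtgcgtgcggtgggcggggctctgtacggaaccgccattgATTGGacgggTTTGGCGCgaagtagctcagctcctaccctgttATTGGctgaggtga
Kif11, chr19:37376132-37376381, plus strand: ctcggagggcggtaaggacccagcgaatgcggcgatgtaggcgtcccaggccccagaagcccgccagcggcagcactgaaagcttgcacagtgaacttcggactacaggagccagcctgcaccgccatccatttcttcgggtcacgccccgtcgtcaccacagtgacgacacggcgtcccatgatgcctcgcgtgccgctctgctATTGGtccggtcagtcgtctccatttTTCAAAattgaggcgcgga
Top2a, chr11:99024190-99024439, minus strand: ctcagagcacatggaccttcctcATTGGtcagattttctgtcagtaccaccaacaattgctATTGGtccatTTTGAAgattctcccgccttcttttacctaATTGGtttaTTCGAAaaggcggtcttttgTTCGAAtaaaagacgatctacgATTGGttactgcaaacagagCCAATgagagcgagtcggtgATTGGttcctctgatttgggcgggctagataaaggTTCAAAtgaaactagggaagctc

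In the Mcm5 stretch the capitals mark 2 E2F sites that overlap each other on opposite strands, which begin 153 and 149 bases before the start, and 2 CCAAT boxes. In Mcm6 they mark 3 E2F sites, of which the pair 110 and 106 bases before the start overlap in the same way, and 2 CCAAT boxes. Kif11 holds a CHR 19 bases before the start with a CCAAT box 45 bases before it, and Top2a holds 4 CHRs and 6 CCAAT boxes, with 0 E2F sites in either. Not all replication genes held the E2F site in this window, since Mcm2, Cdc45, Pcna, Rrm1, Rrm2 and Tyms had 0 matches, and Mcm2, Cdc45 and 1 of the Mcm7 promoters held a CHR.

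The members were expressed at low levels. Per length of exon, the median FPKM over the 16 libraries was highest for Pcna, the sliding clamp of DNA polymerase, at 19.6, followed by Mcm7 at 7.12 and Mcm6 at 6.52, and lowest for Cenpf, a kinetochore protein of mitosis, at 0.153. The helicase genes Mcm2 to Mcm7 were between 1.90 and 7.12, and the kinases of mitosis and its checkpoints were between 0.214 (Ttk) and 1.92 (Plk1).

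Mki67 (chr7:135689784-135716361, minus strand, GRCm38, as all gene positions here), the gene of the proliferation antigen Ki-67 that coats mitotic chromosomes, was at 21.8, 23.4, 7.18 and 14.5 CPM in WT 1 to 4. It was at 12.6, 20.9, 41.9 and 7.56 CPM in Lepob/+ 1 to 4, at 22.1, 31.9, 4.35 and 23.4 CPM in SOD1G93A 1 to 4, and at 8.77, 10.3, 20.8 and 5.36 CPM in SOD1G93A-Lepob/+ 1 to 4. The 6 libraries of the high class were all above the 10 of the low class, but the margin was narrow, 21.8 CPM for WT 1 against 20.9 CPM for Lepob/+ 2 and 20.8 CPM for the library labelled SOD1G93A-Lepob/+ 3. The genotypes overlapped, since each of WT, Lepob/+ and SOD1G93A had libraries of both classes. In bulk tissue, fewer dividing cells and less RNA per dividing cell cannot be told apart. Top2a (chr11:98992943-99024189, minus strand), the topoisomerase that untangles sister chromatids, followed a similar but not the same order, at 17.9, 19.6, 5.48 and 8.91 CPM in WT, 9.85, 19.0, 32.5 and 5.83 CPM in Lepob/+, 16.3, 25.7, 3.11 and 18.3 CPM in SOD1G93A, and 6.60, 7.22, 16.4 and 5.17 CPM in SOD1G93A-Lepob/+. Here Lepob/+ 2 and the library labelled SOD1G93A-Lepob/+ 3 reached the range of the high class.

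Mcm5 (chr8:75109569-75128439, plus strand) and Mcm6 (chr1:128331590-128359664, minus strand) encode subunits of the MCM2-7 helicase that is loaded at origins before replication. Mcm5 was at 21.5, 19.0, 5.99 and 9.70 CPM in WT, 9.63, 19.0, 30.6 and 7.99 CPM in Lepob/+, 22.7, 32.1, 5.56 and 21.9 CPM in SOD1G93A, and 9.14, 8.57, 12.3 and 7.08 CPM in SOD1G93A-Lepob/+. Mcm6 was at 42.3, 41.0, 19.3 and 30.2 CPM in WT, 29.6, 34.3, 52.8 and 19.6 CPM in Lepob/+, 40.7, 53.9, 22.7 and 42.4 CPM in SOD1G93A, and 23.2, 30.7, 29.5 and 24.6 CPM in SOD1G93A-Lepob/+. For Mcm6 the classes did not overlap, with 40.7 to 53.9 CPM in the high class and 19.3 to 34.3 CPM in the low class, whereas for Mcm5 Lepob/+ 2 lay level with WT 2. The library labelled SOD1G93A-Lepob/+ 3, which stood high for Mki67 and Top2a, lay below every library of the high class for both helicase genes. Pcna (chr2:132249162-132253314, minus strand) had the smallest relative spread of the genes shown, from 39.5 CPM in WT 3 to 71.5 CPM in SOD1G93A 2, and its 4 SOD1G93A-Lepob/+ libraries lay at 46.9, 43.4, 47.4 and 46.8 CPM. Reads of Pcna can be shared with a processed pseudogene, Pcna-ps2, which had 2668 counts over all libraries against 34717 for Pcna.

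Cdk1 (chr10:69335146-69352938, minus strand), the kinase that drives entry into mitosis, was at 4.29, 5.28, 3.28 and 4.87 CPM in WT, 4.44, 7.31, 7.55 and 3.73 CPM in Lepob/+, 4.60, 7.21, 2.76 and 5.17 CPM in SOD1G93A, and 3.25, 5.40, 5.53 and 1.80 CPM in SOD1G93A-Lepob/+. Its partner cyclin B1, Ccnb1 (chr13:100778650-100786570, minus strand), was at 2.89, 3.94, 1.11 and 3.09 CPM in WT, 2.17, 3.08, 5.34 and 1.03 CPM in Lepob/+, 1.94, 3.23, 1.00 and 3.26 CPM in SOD1G93A, and 1.55, 2.37, 3.20 and 0.815 CPM in SOD1G93A-Lepob/+. For both, low class libraries reached into the range of the high class. Aurkb (chr11:69045647-69051664, plus strand), the Aurora kinase of the chromosomal passenger complex, was highest in a library of the low class: 2.52, 4.51, 1.83 and 5.45 CPM in WT, 3.96, 8.43, 5.83 and 1.53 CPM in Lepob/+, 3.05, 5.51, 2.00 and 4.22 CPM in SOD1G93A, and 2.61, 3.55, 4.65 and 2.28 CPM in SOD1G93A-Lepob/+.

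Foxm1 (chr6:128362967-128376146, plus strand), the transcription factor of the mitotic genes, did not follow the classes. It was at 2.41, 2.32, 1.42 and 2.88 CPM in WT, 3.76, 6.72, 2.96 and 2.10 CPM in Lepob/+, 6.03, 11.1, 2.90 and 2.17 CPM in SOD1G93A, and 4.89, 1.60, 2.34 and 2.84 CPM in SOD1G93A-Lepob/+. SOD1G93A 2 stood highest, and SOD1G93A 4 of the same genotype and class stood among the lowest. Ccne1 (chr7:38097984-38107534, minus strand), the cyclin E of the G1 to S step, was at 7.30, 5.42, 7.05 and 7.17 CPM in WT, 3.42, 3.76, 7.24 and 3.80 CPM in Lepob/+, 6.80, 8.70, 8.13 and 5.19 CPM in SOD1G93A, and 5.84, 3.30, 7.23 and 3.82 CPM in SOD1G93A-Lepob/+. SOD1G93A 3, which had the lowest Mki67 and Top2a of all 16 libraries, had the second highest Ccne1.

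**Figure D1:**
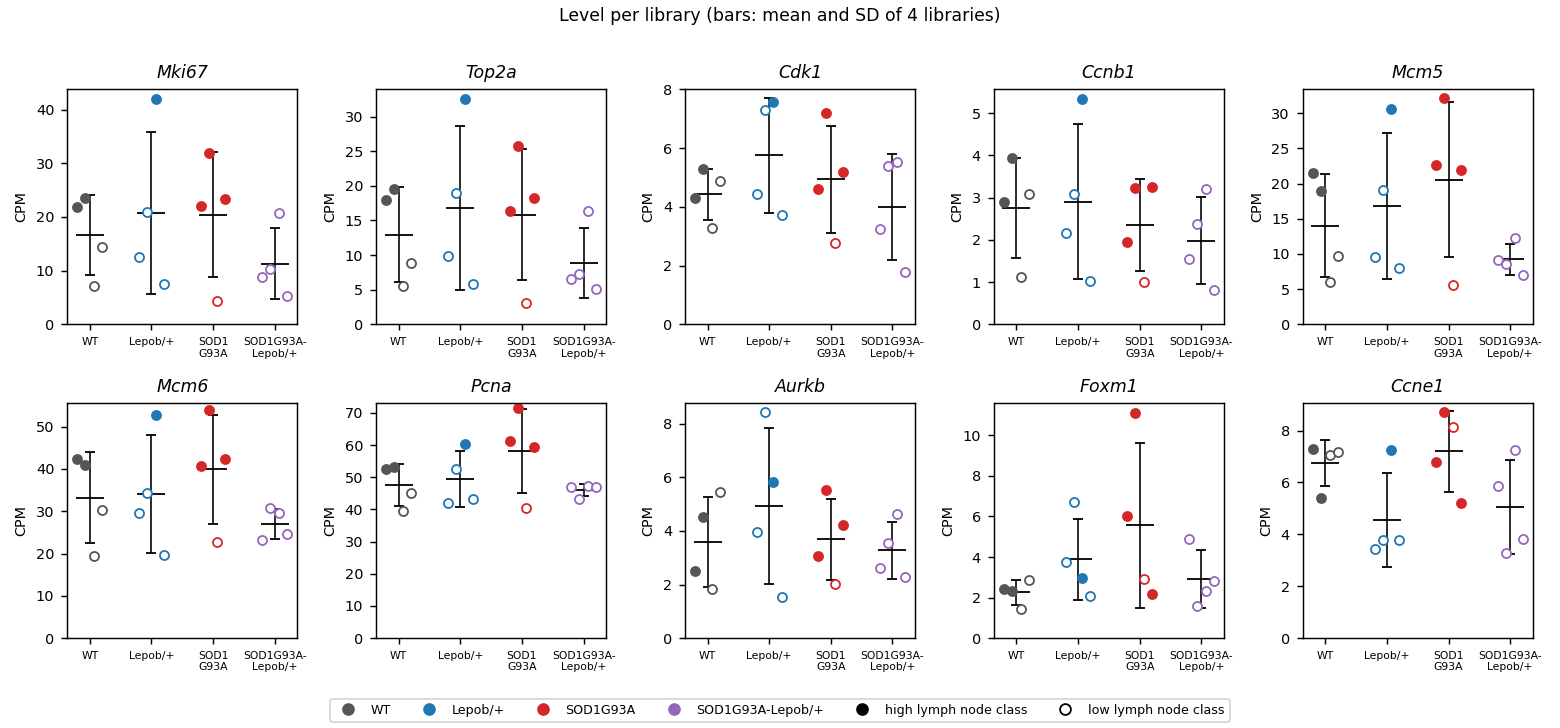
Level in CPM (y axis, from 0) of 10 cell cycle genes in each library by genotype (x axis), filled for the high and open for the low lymph node class, with bars for the mean and SD of 4 libraries. For Mki67 and Mcm6 the filled points all lie above the open ones, while Foxm1 and Ccne1 mix both kinds.

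Over the whole list, 38 of 40 members had a higher mean log2 CPM in the high class, with a median difference of 0.81 (1.75-fold). The median over all 19736 genes was -0.04. These differences are descriptions, since the classes were drawn from measured transcripts, and no test was made between them. Compared with the lymphocyte markers, which differed 69.3-fold to 96.3-fold, the cell cycle genes moved little. Markers of some other cells of the fat pad were lower in the high class, at 0.590-fold for macrophages (14 of 14 markers lower), 0.600-fold for adipocyte progenitors and 0.715-fold for endothelium. Those of mammary epithelium were level, at 1.02-fold (9 of 15 markers higher). All libraries of the high class were above all of the low class for 4 members, Mki67, Mcm4, Mcm6 and Mcm7, which is 10% of the 40. Among all genes the same was true of 11.2%, so that the list did not stand above the background in this respect. The count rested on a few libraries: it was 8 without Lepob/+ 2, 15 without Lepob/+ 2 and the library labelled SOD1G93A-Lepob/+ 3, and 7 without the latter and Lepob/+ 4. Fewer libraries can overlap less, and the share of all genes under the same omissions is not given here. These counts therefore do not set the list apart from the background.

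The largest differences between the classes were those of Ttk, a spindle checkpoint kinase (1.69 on the log2 scale), Top2a (1.46), Mcm5 (1.43), Mki67 (1.42) and Rrm2, the regulated subunit of ribonucleotide reductase (1.26). Ttk had few counts, from 0 in Lepob/+ 4 to 83, so that its value depends on the prior count; its median was 1.19 CPM in the high class and 0.457 CPM in the low class. The smallest differences were those of Ccne2, a cyclin E (-0.16), Cdc45, a part of the active helicase (-0.02), Tyms, which makes thymidylate (0.21), Rrm1, the large subunit of ribonucleotide reductase (0.27), and Aurka, the Aurora kinase of the spindle poles (0.36). Genes that act in the same reaction thus differed, as Rrm2 did from Rrm1 (2.40-fold and 1.21-fold).

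By role, the median difference was 0.69 for the 6 genes of cyclins and Cdk1, 0.81 for the 8 genes of replication licensing and firing, and 0.34 for the 4 genes of nucleotide supply and the clamp. It was 0.86 for the 7 mitotic and checkpoint kinases, 0.75 for Cdc20 and Ube2c, which act with the anaphase-promoting complex, 0.99 for the 4 centromere and kinetochore genes, and 0.71 for the 6 genes of spindle motors and cytokinesis. It was 1.44 for Mki67 and Top2a and 0.37 for Foxm1. The share of the variance of log2 CPM over the 16 libraries that lay between the classes also varied. For the helicase genes Mcm2 to Mcm7, a subset chosen after their values were seen, it was 70.5% to 84.5% (median 73.4%). For Cdc6, which loads the helicase, and Cdc45, the other genes of licensing and firing, it was 15.4% and 0.151%, and among the genes of nucleotide supply and the clamp it ran from 12.5% (Tyms) to 70.5% (Pcna). For the 19 genes of the 4 mitotic roles it was 7.19% to 60.9% (median 34.9%), with no test of the difference. The median was 35.4% over the 40 members and 23.3% over all genes. Between genotypes the median share was 11.5% for the members and 20.4% for all genes. It is not a like measure, since a split into 4 genotypes takes up more variance by itself than a split into a high and a low class. Within the low class the SD of log2 CPM was 0.33 (median) for Mcm2 to Mcm7 and 0.62 for the mitotic genes. For the genes whose promoters are shown, the share between classes was 73.2% (Mcm5), 72.3% (Mcm6), 60.9% (Kif11) and 56.2% (Top2a). Members with an E2F site in the searched window ran from 15.4% (Cdc6) to 73.6% (Mcm3). Searched members without one ran from 0.151% (Cdc45) to 75.1% (Mcm2). A relation of the motifs to the classes was not tested.

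**Figure D2:**
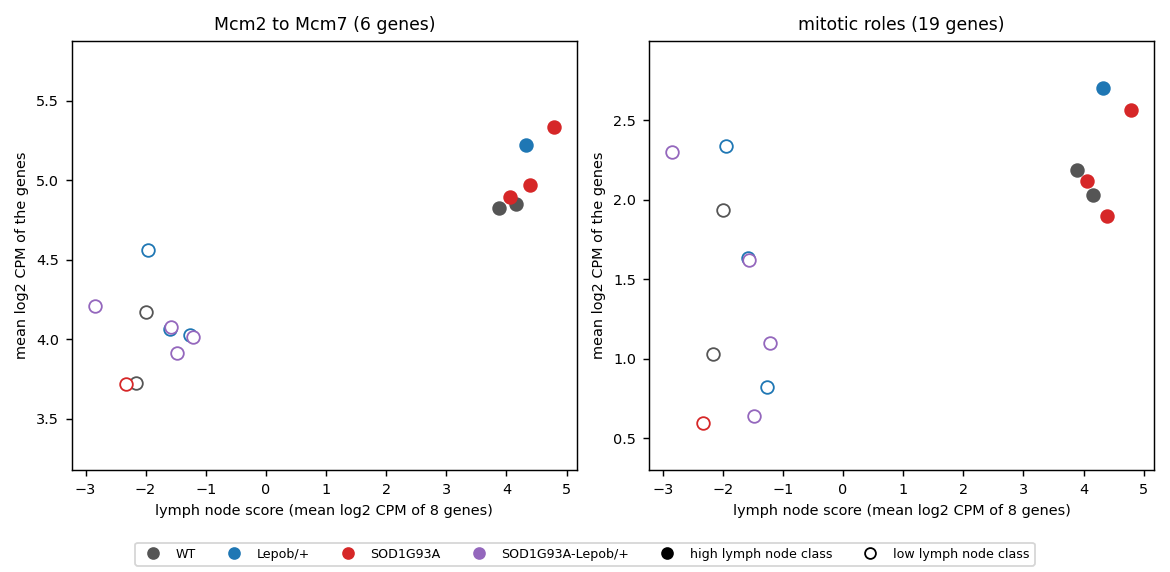
Mean log2 CPM of Mcm2 to Mcm7 (left) and of 19 genes of mitotic roles (right) against the lymph node score of each library, coloured by genotype, filled for the high and open for the low class, with y axes of equal length. The helicase genes form separate groups (4.83 to 5.33 and 3.72 to 4.56), and the mitotic genes of the low class spread from 0.60 to 2.33, into the range of the high class.

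As a mean over genes, Mcm2 to Mcm7 were at 4.83 to 5.33 in the high class and 3.72 to 4.56 in the low class, without overlap. The mitotic genes were at 1.90 to 2.70 in the high class and 0.60 to 2.33 in the low class. The overlap came from 3 libraries of the low class, Lepob/+ 2 (2.33), the library labelled SOD1G93A-Lepob/+ 3 (2.30) and WT 4 (1.94), which lay above the lowest library of the high class, SOD1G93A 1 (1.90). Thus a library nearly free of lymph node transcripts could hold as much mitotic RNA as a library with them.

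Within each class, some libraries carried most of the highest values. In the low class, Lepob/+ 2 was the highest of the 10 libraries for 20 members, among them Mki67, Top2a, Aurkb and Foxm1. It also had the highest macrophage score of the 16 libraries (7.57, the mean log2 CPM of 14 markers). The library labelled SOD1G93A-Lepob/+ 3 was the highest for 15 members, among them Plk1, Cdc20, Tpx2 and Mcm4. Its endothelium score of 7.18 was the highest of the 16. Lepob/+ 4 was the highest for 4 members, Ccne2, Mcm2, Rrm1 and Aurka, and SOD1G93A 3 for Ccne1. In the high class, Lepob/+ 3 was the highest for 23 members and SOD1G93A 2 for 16. These had the highest scores of germinal centre B cells, at 3.26 and 2.33 against 0.997 to 1.71 in the other 4. They also had the highest scores of this class for T cells (6.13 and 6.55), B cells (7.09 and 7.43) and plasma cells (3.73 and 3.94). The rank was therefore not particular to germinal centres. Germinal centres are the sites in lymph nodes where B cells divide fast. The part of each of these cell types in the levels was not tested.

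**Figure D3:**
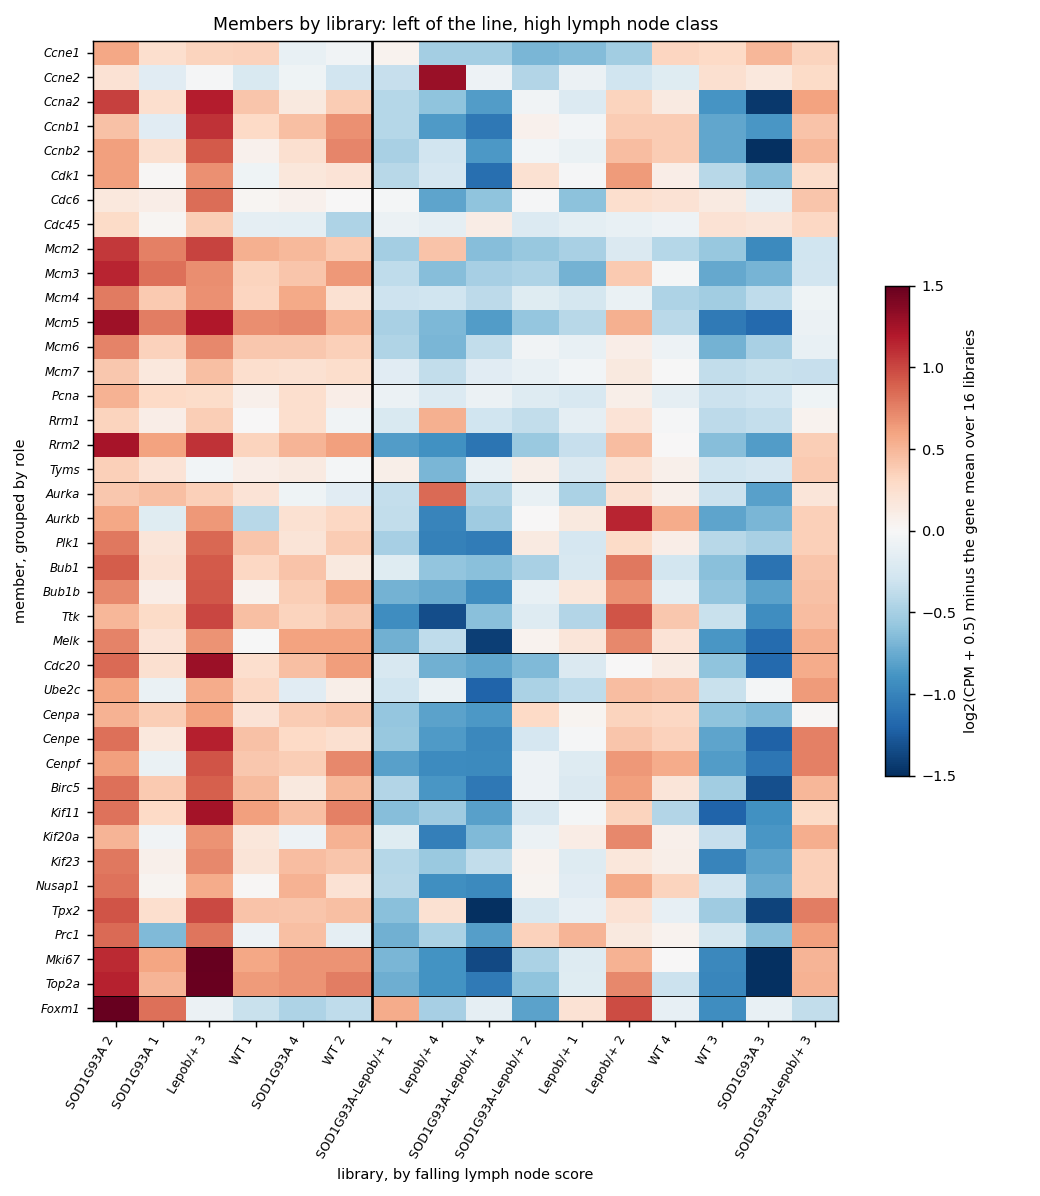
Log2(CPM + 0.5) of each of 40 members (rows, by role) minus the gene mean over 16 libraries, which are ordered by falling lymph node score (columns), with the class boundary as a line and the colour scale ending at 1.5 in both directions. Rows Mcm2 to Mcm7 change colour at the line, and most mitotic rows are also red in Lepob/+ 2 and in the library labelled SOD1G93A-Lepob/+ 3.

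Lepob/+ 4, the library with muscle transcripts, stood apart for 4 members. Ccne2 was at 7.69 CPM there and at 1.97 to 3.58 CPM in the other 15 libraries, Rrm1 at 41.5 CPM against 21.5 to 37.0 CPM, and Aurka at 7.06 CPM against 1.90 to 5.24 CPM. Mcm2 was at 21.7 CPM there, the highest of the low class. Mki67 (7.56 CPM) and Top2a (5.83 CPM) were low in the same library. Ube2c, whose exons overlap the muscle gene Tnnc2 on the opposite strand over 22.8% of their length, was at 4.06 CPM in Lepob/+ 4, within the range of the other libraries. Since the strand setting of the counting was not given, reads from the overlap cannot be told apart, and this also holds for Kif20a with Cdc23 (29.3%), Ccne2 with Ints8 (17.4%), Ccna2 with Exosc9 (12.5%) and Prc1 with Rccd1 (11.1%).

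Whether the members rose with the lymph node score inside a class was tested by edgeR's quasi-likelihood test on the slope, with Benjamini-Hochberg adjustment over all genes. In the 6 libraries of the high class, 38 of 40 slopes were positive, with a median of 0.45 (log2 CPM for each unit of score), against 0.00 over all genes. Adjusted p under 0.05 was reached by 0 members and by 0% of all genes. Unadjusted p under 0.05 was reached upward by 6 members, Foxm1 (slope 2.70 ± 0.45, SE), Mcm2, Mcm3, Mcm5, Pcna and Ccne1, and by 7.26% of all genes, with a smallest adjusted p of 0.270 among the members. In the 10 libraries of the low class, 32 of 39 slopes were negative, with a median of -0.48 against 0.02 over all genes. The median was -0.19 without the library labelled SOD1G93A-Lepob/+ 3. Here 0 members and 0% of all genes passed, and 5 members (Ccne1, Rrm2, Ube2c, Cdc6 and Cdc45) had an unadjusted p under 0.05 downward, against 3.55% of all genes. The sign depended on the score: with the mean of T cell and B cell markers in its place, the median slope in the low class was 0.13. Within the low class, the members therefore showed no rise with this score that the test could detect. The score is low there and did not rank the libraries as the summed CPM of its 8 genes did. Lepob/+ 4 had a score of -1.27 with 10.5 CPM, and Lepob/+ 2 a score of -1.96 with 35.0 CPM. The slopes in this class therefore cannot decide whether the members rose with lymph node content.

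The members were then set against the macrophage score in the 10 libraries of the low class, an analysis chosen after seeing the data. The fit held no genotype term, so that differences between genotypes enter the slopes. Of 39 members tested, 34 had a positive slope, with a median of 0.49 against -0.02 over all genes. Mcm6 (slope 0.39 ± 0.084, SE, adjusted p = 0.0286 by edgeR) and Aurkb (1.00 ± 0.23, adjusted p = 0.0354) rose with the score. These 2 of 39 members stand beside 4.11% of all genes called upward. At an unadjusted p under 0.05, 11 of 39 members had a positive slope, against 11.9% of all genes. Without the library labelled SOD1G93A-Lepob/+ 3, the call was reached by 3 of 38 members, with Kif23, a kinesin of cytokinesis, as the third (slope 0.60 ± 0.13, adjusted p = 0.0290 by edgeR), against 4.29% of all genes, and 24 of 38 had an unadjusted p under 0.05 upward, against 12.5% of all genes. Without Lepob/+ 4 as well, 3 members were called against 5.34%, and 21 of 38 had an unadjusted p under 0.05 upward against 13.3%. Lepob/+ 2, which had the highest macrophage score, was kept in all of these fits. How far the slopes rest on that library was not tested. Ccne2 had a slope of -0.68 ± 0.23 in all 10 libraries, with an adjusted p of 0.130 by edgeR. It was the only member with a negative slope at an unadjusted p under 0.05. Lepob/+ 2 and WT 4 had the highest scores of both macrophages (7.57 and 7.19) and adipocyte progenitors (9.10 and 9.10), and which of these cell types held the cell cycle RNA was not tested.

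**Figure D4:**
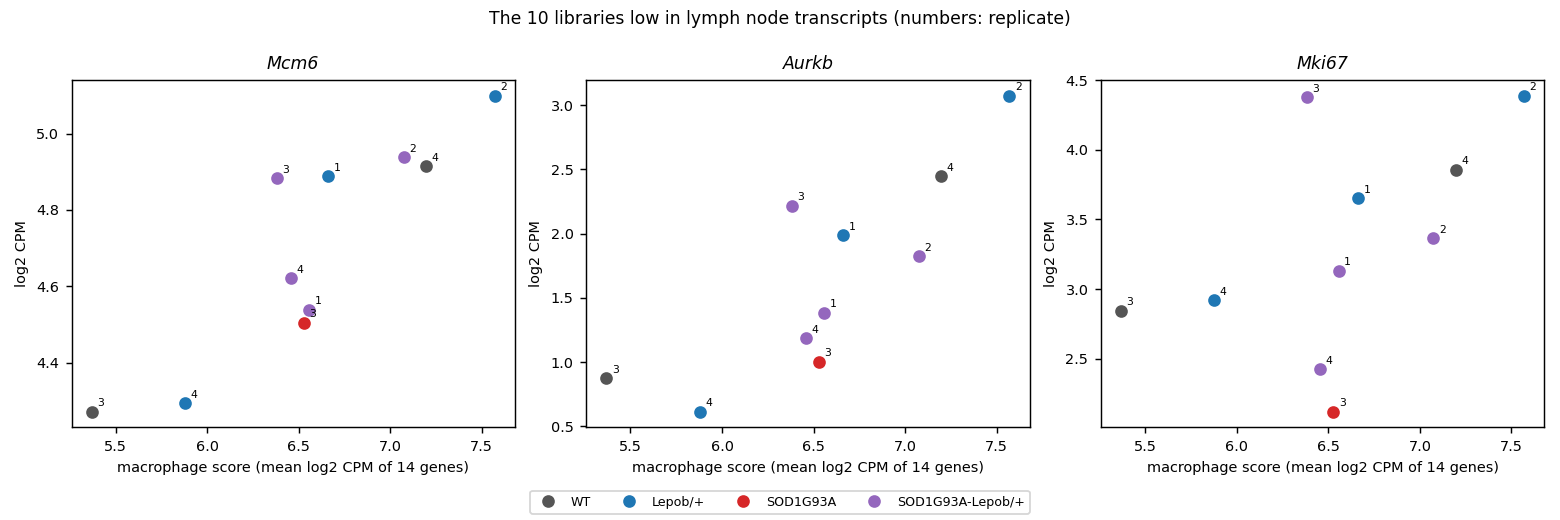
Log2 CPM of Mcm6, Aurkb and Mki67 against the macrophage score (mean log2 CPM of 14 markers) in the 10 libraries of the low lymph node class, coloured by genotype and numbered by replicate. Lepob/+ 2 lies at the upper right in each panel, and the library labelled SOD1G93A-Lepob/+ 3 is high for Mki67 at a middling score.

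The comparison of Lepob/+ with WT asks what lower leptin dosage does in fat without the transgene. Of 40 members, 33 had a higher and 7 a lower fitted level in Lepob/+, with a median log2 fold change of 0.14 against 0.03 over all genes. By edgeR, 0 members and 0% of all genes passed an adjusted p of 0.05, and 0 members had an unadjusted p under 0.05, against 4.37% of all genes. DESeq2 on these 8 libraries called 0 members and 0.0174% of all genes. The 4 smallest p belonged to Ccne1 (-0.56 ± 0.29, SE), Ccne2 (0.55 ± 0.35), Foxm1 (0.78 ± 0.51) and Rrm1 (0.37 ± 0.18). The value of Ccne2 came from Lepob/+ 4, without which it was -0.05. No member had groups that did not overlap, and 0.375% of all genes lay wholly below and 0.532% wholly above. For Mki67, the mean was 20.8 ± 15.2 CPM (SD, n = 4) in Lepob/+ and 16.7 ± 7.45 CPM in WT. The direction of the list rested on Lepob/+ 3, the high class library of this genotype, without which its median was -0.18. T cell markers had a median of -0.61 in this comparison, germinal centre markers 0.75 and skeletal muscle markers, which were high in Lepob/+ 4, 5.23 (12 of 12 higher). Their part in the members' values was not tested.

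SOD1G93A against WT, which shares its WT libraries with the comparison above, asks what the transgene does in the fat at this age. In SOD1G93A, 32 members were higher and 8 lower, with a median of 0.17 against 0.02 over all genes, and 0 members and 0% of all genes were called by edgeR. DESeq2 on these 8 libraries called 0 members and 0.062% of all genes. Foxm1 had an unadjusted p under 0.05 by edgeR (1.30 ± 0.51, SE), with an adjusted p of 0.998, and upward this was reached by 1.64% of all genes. Its mean of 5.55 ± 4.07 CPM (SD, n = 4) in SOD1G93A against 2.26 ± 0.611 CPM in WT rested on SOD1G93A 1 and 2, and the log2 fold change was 0.70 without SOD1G93A 2. Mcm4 (0.47 ± 0.28), Pcna (0.29 ± 0.17) and Rrm1 followed by p. No member's groups were without overlap, against 0.689% of all genes below and 1.37% above. B cell markers, with 3 of 4 SOD1G93A libraries and 2 of 4 WT libraries in the high class, had a median of 1.47 here. Markers of red blood cells had a median of -1.06 (5 of 5 lower, all 5 with an unadjusted p under 0.05), those of skeletal muscle -3.05 (9 of 12 lower), and those of macrophages -0.34 (13 of 14 lower). Their part in the members' values was not tested. The median of the members was -0.05 without SOD1G93A 2 and 0.37 without SOD1G93A 3. Within the high class it was 0.10 (30 higher, 10 lower). Within the low class, where SOD1G93A 3 is the lone library of its genotype and is assumed to vary like the others, it was -0.61.

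SOD1G93A-Lepob/+ against SOD1G93A asks what lower leptin dosage does in the presence of the transgene, against the same SOD1G93A libraries. Here 38 members were lower and 2 higher in SOD1G93A-Lepob/+, with a median of -0.43 against 0.00 over all genes. By edgeR 0 members and 0% of all genes were called. Unadjusted p under 0.05 was reached downward by 4 members, all helicase genes, against 12.3% of all genes: Mcm2 (-1.04 ± 0.42, SE), Mcm3 (-1.0 ± 0.41), Mcm4 (-0.65 ± 0.29) and Mcm5 (-1.15 ± 0.53), with a smallest adjusted p of 0.262. That is 10% of the list, near the background. In means of 4 libraries, Mcm2 was at 11.1 ± 1.19 CPM (SD) in SOD1G93A-Lepob/+ and 22.9 ± 10.9 CPM in SOD1G93A, Mcm3 at 14.3 ± 0.959 and 28.7 ± 13.3 CPM, and Mcm5 at 9.27 ± 2.19 and 20.6 ± 11.0 CPM. SOD1G93A 3, the low class library of its genotype, was below the 4 SOD1G93A-Lepob/+ libraries for each (7.96, 11.7 and 5.56 CPM), so that the groups overlapped, and this was so for all 40 members. Among all genes, 3.6% lay wholly below and 3.58% wholly above. By DESeq2 on these 8 libraries 7.77% of all genes were called but 0 members, of which Mcm3 came closest (adjusted p = 0.0538). Mki67 was lower by -0.85 ± 0.62, Top2a by -0.84 ± 0.64 and Foxm1 by -0.93 ± 0.51, each within 2 SE.

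In this comparison the lymph node classes go with the genotype, with 3 of 4 SOD1G93A libraries in the high class and all 4 SOD1G93A-Lepob/+ libraries in the low class. The marker lists moved accordingly, with medians of -5.95 for T cells, -6.63 for B cells and -5.32 for lymph node stroma, and of 0.56 for macrophages, 0.70 for mammary epithelium and 1.08 for red blood cells. With the lymph node score as a covariate, the median of the members was 0.20, with 31 higher and 9 lower and 0 called. Mcm2, Mcm4 and Pcna then lay close to 0 (0.04, 0.03 and 0.01), while Mki67 was at 0.55 and Top2a at 0.68. With the lymphocyte score as a covariate the median was 0.33. Within the low class, where the 4 SOD1G93A-Lepob/+ libraries meet SOD1G93A 3 alone, 36 of 40 members were higher, with a median of 0.69. These fits turn the direction of the list, but the share of genotype and of lymph node content in it cannot be told apart with 1 SOD1G93A library in the low class. Leaving out the library labelled SOD1G93A-Lepob/+ 3 gave a median of -0.73 in the fit of genotypes, and leaving out SOD1G93A 2 gave -0.20, against -0.43 with all libraries.

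**Figure D5:**
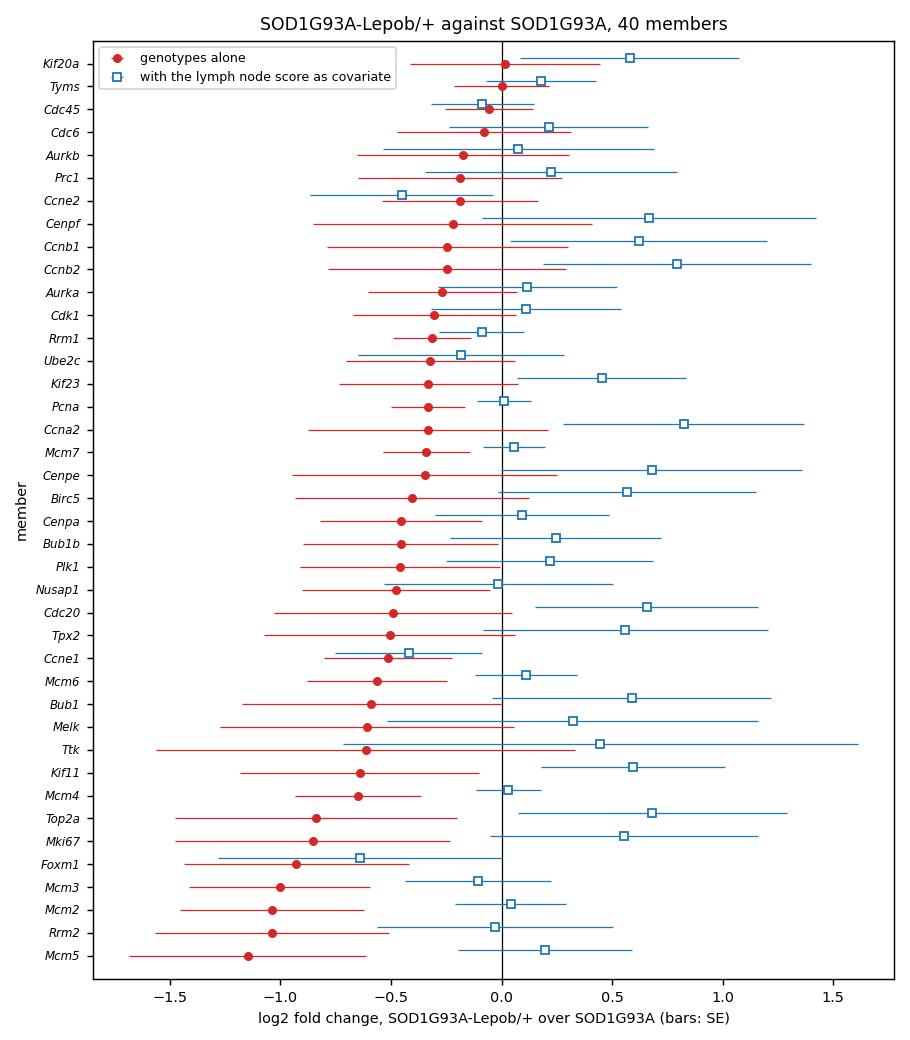
Fitted log2 fold change (x axis, bars for SE) of SOD1G93A-Lepob/+ over SOD1G93A for each of 40 members (y axis, by value), from genotypes alone (filled circles) and with the lymph node score as a covariate (open squares). With genotypes alone 38 members lie below 0, and with the covariate 31 lie above it.

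The interaction, the effect of the ob allele with the transgene minus that without it, was negative for 38 of 40 members, with a median of -0.64 against -0.09 over all genes. The median was -0.30 without Lepob/+ 3 and -0.85 without the library labelled SOD1G93A-Lepob/+ 3. By edgeR 0 members and 0% of all genes were called. Foxm1 (-1.71 ± 0.72, SE), Mcm2 (-1.29 ± 0.58) and Rrm1 (-0.69 ± 0.25) had an unadjusted p under 0.05 downward, as did 5.82% of all genes, with adjusted p of 0.564 or more. The lymph node classes differ in this contrast too, and with the score as a covariate the median was -0.06 (17 higher, 23 lower).

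The members belong to a larger pathway, given by 86 other genes in 7 lists. In SOD1G93A-Lepob/+ against SOD1G93A, 62 of the 86 were lower and 24 higher, with a median of -0.34. Of these 0 were called by edgeR, and 14 had an unadjusted p under 0.05, all downward (12.3% of all genes), among them Cdt1, which loads the helicase, Pold1 and Pole, catalytic subunits of replicative polymerases, Tk1, thymidine kinase, and Cdkn1b, the inhibitor p27. By lymph node class the lists took different values, given here as a description. Of 21 genes of the replication fork and origin, 18 were higher in the high class and 33.3% lay there wholly above the low class (Cdt1, Gins3, Pold1, Pole, Prim1, Rfc5 and Tk1), against 11.2% of all genes. Of 18 E2F, Rb and DREAM regulators, 10 were higher, with a median of 0.20. E2f2, an activator, was 3.03-fold higher in the high class, without overlap, and E2f1 was at 0.643 of its low class level. The 7 CDK inhibitors had a median of -0.12, and Cdkn1c, the inhibitor p57, was lower in every library of the high class than in any of the low class. Of 19 genes of spindle assembly and the kinetochore, 16 were higher, with a median of 1.02, and 10.5% lay wholly above. Smc4, a condensin subunit, had the largest share of variance between classes among the 86 genes, 91.8%.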

How the data were processed

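RNA was measured in iWAT from 4 mice of each of 4 genotypes. Per the paper, n is the number of animals; the labels say no more of the replicates, so that p-values measure the spread between these libraries. With fastp the authors trimmed at a Phred quality of 30 and a length of 30 bases. Reads were then placed on mm10 (GRCm38) by HISAT2 2.1.0, and featureCounts 2.0.2 assigned uniquely mapped reads to genes, versions as in the submitters' processing notes. What they deposited are these raw counts, without normalization. The paper names TruSeq Stranded mRNA libraries and the labels name a NEBNext Ultra kit, while the strand setting and the annotation release are not given in the sources used here. Gene positions are those of a GENCODE annotation of GRCm38 for the same Ensembl IDs.

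Genes passing filterByExpr (min.count 10, min.total.count 15) were scaled by TMM and tested with robust quasi-likelihood F tests of edgeR 4.0.16 (R 4.3.3) on all 16 libraries, with Benjamini-Hochberg adjustment over 19736 genes at a threshold of 0.05. The SE is the log2 fold change over the square root of F. Log2 CPM used a prior count of 1. Classes were divided at the largest gap in the lymph node score, and slopes were fitted to the libraries of a class without a genotype term. DESeq2 1.42.0 was an alternative. FPKM used the union of exons. Depth was 36.8 M to 61.9 M counts. Alternatives were other scalings and filters, a replicate block, leaving out each library, lymph node or lymphocyte covariates and fits within a class, of which the last and the macrophage slopes were chosen after seeing the data. The procedure was tested on simulated counts without lymph node classes, which says nothing of how the classes affect the tests. Genes named are 10 taken for their roles, the 4 smallest p in each comparison, the 5 largest and 5 smallest differences between classes, and up to 3 of each pathway list by p; others were named after their values were seen. The members, lists and tests were chosen with earlier results of these data known. The smallest chi-square per gene among 24 pairs of replicates was 46.4, so that no library was taken for a duplicate.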

Additional observations from a re-analysis of the deposited data

Results flagged for a closer look

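Of 64 groups of 4 libraries examined for a library far from the other 3, 4 were marked, where chance marks about 1 in 20. Values are levels in log2 CPM. Pcna was at 5.44 in SOD1G93A-Lepob/+ 2, below 5.55 to 5.57 in the others, a gap that is small in size. Ccne1 was at 2.44 in WT 2, below 2.82 to 2.87 in the other WT libraries, and at 2.86 in Lepob/+ 3, above 1.78 to 1.93 in the other Lepob/+ libraries. Rrm1 was at 4.43 in WT 3, below 4.78 to 4.84 in the other WT libraries. WT 3 was also the lowest of its genotype for Mki67, Top2a and Mcm5.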

How the results depend on the processing

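In each genotype comparison, edgeR and DESeq2 called 0 of the members under every alternative run. Over all genes in SOD1G93A-Lepob/+ against SOD1G93A, where edgeR called 0, DESeq2 called 553 on 16 libraries and 1750 on 8. The median log2 fold change of the members in that comparison turned from -0.43 to 0.20 with the lymph node covariate, 0.33 with the lymphocyte covariate and 0.69 within the low class. Within the low class it was -0.61 for SOD1G93A against WT and 0.49 for the interaction. The cause was not tested. The count of members without overlap between the classes went from 4 to 7, 8 or 15 when the libraries named in the report were left aside, a choice made after seeing the data, and fewer libraries can overlap less. The share of all genes under these omissions is not given, so the counts are not read as a trait of the list. Leaving out each library gave medians of -0.18 (without Lepob/+ 3) to 0.32 for Lepob/+ against WT, -0.05 to 0.37 for SOD1G93A against WT, -0.73 (without the library labelled SOD1G93A-Lepob/+ 3) to -0.20 (without SOD1G93A 2) for SOD1G93A-Lepob/+ against SOD1G93A, and -0.85 to -0.30 for the interaction.

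Same-numbered libraries were treated as unpaired. Of 24 pairs, 5 had a correlation of deviations over 0.1 and 8 under -0.1. It was 0.52 for WT 3 with SOD1G93A 3, both of the low class, and -0.69 for Lepob/+ 3, of the high class, with SOD1G93A 3. Since the deviations also hold the lymph node classes, they cannot show whether same-numbered libraries shared a litter or a batch. With the replicate number as a block, the medians were 0.11, 0.18, -0.49 and -0.60 in the same order, with 0 members called. The lowest members, such as Ttk with 0 to 83 counts, are limited by depth.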
